A study of Mus musculus with 6 samples.

Results

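The genes of the mTOR kinase complexes and of the TSC complex that restrains them were described in mDCT15, an immortal line of mouse distal convoluted tubule cells. The 10 genes were taken by name: *Mtor*, *Rptor*, *Rictor*, *Mlst8*, *Deptor*, *Akt1s1*, *Tsc1*, *Tsc2*, *Tbc1d7* and *Rheb*, and all 10 were found, each with 1 identifier, among the 20624 genes of the table. The study compared 3 samples of *Pkd1*-/- cells, made by CRISPR-Cas9 editing, with 3 samples of wild type cells. Both were routinely cultured in the same medium with serum, and no treatment or time course was named for the sequenced samples. Whether serum was present when their RNA was taken was not given in the sources used here. The genotype field of the labels calls the edited cells knockdown, while the titles call them *Pkd1*-/-. RNA was sequenced after removal of ribosomal RNA. How many edited clones the *Pkd1*-/- samples stand for was not given in the sources used here.

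The only value used here for each gene was the authors' mean normalized count over all 6 samples, with both genotypes together. It has no standard deviation and no value per sample, so no difference between *Pkd1*-/- and wild type cells is given, no gene is tested against another, and the depth per sample cannot be given. The table also holds the authors' own comparison of the genotypes, which was not used. What follows is therefore a description of how much RNA of each component the cells of this study held on average, and of the places in the genome where the exons of these genes overlap those of a neighbour.

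The mTOR kinase works in a pair of complexes. In mTORC1 it is joined by raptor (*Rptor*), which recruits substrates, and by PRAS40 (*Akt1s1*), an inhibitory substrate of AKT. In mTORC2 it is joined by rictor (*Rictor*), which directs the kinase to AKT and other kinases. Both complexes hold MLST8 and can hold DEPTOR, an inhibitor of the kinase. mTORC1 is switched on at the lysosome by the small GTPase RHEB, and the TSC complex of hamartin (*Tsc1*), tuberin (*Tsc2*) and TBC1D7 switches RHEB off, since tuberin is its GTPase-activating protein. In the kidney the pathway is known from tuberous sclerosis and polycystic kidney disease, and *TSC2* and *PKD1* are neighbours whose joint deletion causes early cystic disease.

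Where the genes lie bears on how they could be counted. *Tsc2* lies on the minus strand of chromosome 17 (GRCm39, 24814783 to 24852192), tail to tail with *Pkd1* on the plus strand (24768808 to 24815482), and head to head with *Nthl1*, a DNA repair glycosylase gene (plus strand, 24851647 to 24857812). In the RefSeq promoter table, on the build GRCm38, the starts of *Tsc2* and *Nthl1* are 55 bases apart, so that a window from 250 bases before to 50 bases after the *Tsc2* start reaches into *Nthl1*. This window is shown because a single stretch of sequence holds both starts. It is chr17:24632578-24632877, read on the minus strand, with capitals for the 196 bases that lie at or beyond the *Nthl1* start.
Tsc2: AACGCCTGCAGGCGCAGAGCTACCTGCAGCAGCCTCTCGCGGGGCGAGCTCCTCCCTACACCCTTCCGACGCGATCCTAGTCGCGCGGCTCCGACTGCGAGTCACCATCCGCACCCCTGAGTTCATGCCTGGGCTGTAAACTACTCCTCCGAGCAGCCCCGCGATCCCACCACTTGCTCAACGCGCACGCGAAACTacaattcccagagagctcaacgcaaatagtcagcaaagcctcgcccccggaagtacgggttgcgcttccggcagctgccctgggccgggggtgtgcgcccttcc

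Of the 10 members, 9 had a window in that table. Their median GC content was 64.0%, against 52.7% over all 32851 windows, and their median number of CG pairs was 27, against 7 over all windows. None of the 9 windows held the TATA box TATAAA, which 13.6% of all windows held on either strand. The GC box GGGCGG was in 4 of the 9 (35.7% of all windows) and the CCAAT box CCAAT in 2 of the 9 (37.4% of all windows). The E-box CACGTG, the core of the sites that MYC and TFEB family factors can bind, was in 2 of the 9 windows and in 7.15% of all windows. These letter matches describe the windows only. The windows with the E-box were those of *Rheb* and *Tbc1d7*. They are shown for that motif, with capitals for each match to the motifs searched, which in the *Rheb* window include the GC box. The *Rheb* window is chr5:24842312-24842611 and the *Tbc1d7* window chr13:43171452-43171751, both of GRCm38 and on the minus strand.
Rheb: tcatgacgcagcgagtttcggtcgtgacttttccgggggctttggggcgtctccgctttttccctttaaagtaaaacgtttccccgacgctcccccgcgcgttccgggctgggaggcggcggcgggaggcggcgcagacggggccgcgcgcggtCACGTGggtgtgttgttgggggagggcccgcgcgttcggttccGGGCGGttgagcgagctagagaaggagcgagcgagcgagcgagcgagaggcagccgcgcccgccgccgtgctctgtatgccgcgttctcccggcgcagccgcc
Tbc1d7: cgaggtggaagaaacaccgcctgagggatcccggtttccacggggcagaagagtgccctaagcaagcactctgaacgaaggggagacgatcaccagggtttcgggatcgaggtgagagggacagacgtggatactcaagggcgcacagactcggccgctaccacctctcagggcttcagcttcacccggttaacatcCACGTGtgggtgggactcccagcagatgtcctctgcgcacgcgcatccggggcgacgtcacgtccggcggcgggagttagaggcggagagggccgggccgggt

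RNA of all members was counted, at levels above and below that of the median gene. Their mean normalized counts, which are not comparable between genes of different length, ran from 211.1 for *Tbc1d7* to 3343 for *Tsc2*, and all 10 exceeded a mean of 100, as did 50.3% of all genes in the table. To compare genes, each mean was divided by the length of the gene's merged exons and scaled to a sum of 1000000 over the 20122 genes with a gene model, which gives a level in parts per 1000000 (ppm). On this scale the members had a median level of 50.8, against 28.1 over all genes with a mean of at least 10. *Deptor* and *Tbc1d7* stood under that median of all genes, at 0.557 and 0.517 times its value. As transcripts of 1 gene differ in length, 2 other levels are given beside that by merged exons. These are by the longest coding transcript (transcript length) and by the longest coding sequence (coding length). These were scaled to the same sum over the 13830 genes with a coding transcript and the 13865 with a coding sequence, so a level does not move by the change in length alone. By transcript length the median of the members was 55.6 against 38.6 over all such genes whose mean reached 10. By coding length it was 43.4 against 38.9. The distance was smaller with each of these lengths, but the genes compared changed as well, to those with a coding transcript or sequence. Among protein-coding genes by merged exons the median percentile of the members was 68.3, beside 67.1 by transcript length. How much of the narrowing came from the length alone was not tested.

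**Figure D1:**
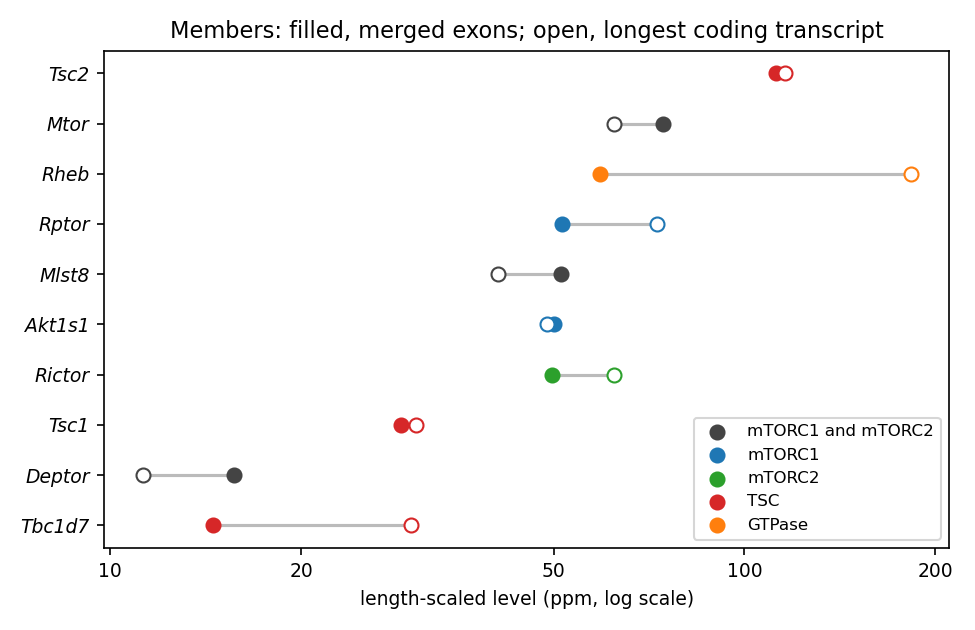
Length-scaled level (ppm, log axis) of each member, with filled points for the length of the merged exons and open points for the length of the longest coding transcript, coloured by complex. *Rptor*, *Mlst8*, *Akt1s1* and *Rictor* sit together between 49.7 and 51.5 by merged exons, and *Rheb* moves most between the lengths, from 59.2 to 182.9.

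The kinase itself, *Mtor* (ENSMUSG00000028991, chromosome 4 from 148533015 to 148642141, 58 exons in its canonical transcript), was counted at a mean of 2253 and reached a level of 74.5 ppm. Its level was 2.65 times the median of all genes with a mean of 10 or more. It stood at percentile 84.5 of all genes with a gene model and 78.2 of the protein-coding genes. By transcript length it was 62.4, at percentile 70.3 of the genes with a coding transcript. The median of those with a mean of 10 or more was 38.6. By coding length *Mtor* was 26.3, under the median of 38.9 and rank 9 of the 10 members, so its place relative to other genes depended on the length. The shared subunit *Mlst8* (ENSMUSG00000024142, chromosome 17, 24692524 to 24698057) had a mean of 659.3 and a level of 51.4 ppm, which was 0.690 times that of *Mtor* by merged exons and 0.656 times by transcript length, but 2.30 times by coding length. *Deptor* (ENSMUSG00000022419, chromosome 15 from 54975710 to 55122667), the inhibitor of both complexes, had a mean of 400.4 and a level of 15.7 ppm, which was 0.210 times that of *Mtor* by merged exons, 0.180 times by transcript length and 1.12 times by coding length. By transcript length *Deptor* was the lowest of the 10 members, at 11.2. It stood under *Mlst8* by each of the 3 lengths, whereas the order of both relative to *Mtor* turned with the coding length.

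The subunits that set the complexes apart had nearly the same level. *Rptor* (ENSMUSG00000025583, chromosome 11 from 119493731 to 119790402) was counted at a mean of 2001, a level of 51.5 ppm. *Rictor* (ENSMUSG00000050310, chromosome 15 from 6737860 to 6829882) had a mean of 2436 and a level of 49.7 ppm. The ratio of *Rptor* to *Rictor* was 1.04 by merged exons, 1.17 by transcript length and 1.05 by coding length. No spread between samples stands beside these ratios, so whether such a ratio differs from 1 was not tested. *Akt1s1* (ENSMUSG00000011096, chromosome 7 from 44498415 to 44504908) had a mean of 697.2 and a level of 50.2 ppm, 0.973 times that of *Rptor* by merged exons, 0.671 times by transcript length and 1.44 times by coding length. Its order relative to *Rptor*, *Rictor* and *Mlst8* changed with the length used.

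The TSC genes were unequal. *Tsc2* (ENSMUSG00000002496, 41 exons in its canonical transcript) had the highest level of all members by merged exons, 112.1 ppm, at percentile 90.4 of all genes, 115.8 by transcript length and 55.6 by coding length. *Tsc1* (ENSMUSG00000026812, chromosome 2 from 28531061 to 28581179) had a mean of 1201 and a level of 28.8 ppm, close to the median of 28.1, while by transcript length it was 30.3 against a median of 38.6. The ratio of *Tsc1* to *Tsc2* was 0.257 by merged exons, 0.262 by transcript length and 0.559 by coding length. *Tbc1d7* (ENSMUSG00000021368, chromosome 13 from 43305199 to 43325729), the smallest subunit, had a level of 14.5 ppm by merged exons and 29.8 by transcript length, 0.129 and 0.257 times that of *Tsc2*. *Tsc2* thus stood above both partners by merged exons, transcript length and coding length. By transcript length *Tsc1* and *Tbc1d7* were almost level.

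*Rheb* (ENSMUSG00000028945, chromosome 5 from 25007821 to 25047622) was the member whose level depended most on the gene length. Its mean normalized count was 1359. Its merged exons span 7963 bases, 4.46 times its longest coding transcript of 1784 bases. Its level was 59.2 ppm by merged exons, rank 3 of the 10, and the highest of the 10 by transcript length (182.9) and by coding length (222.0). The ratio of *Rheb* to *Tsc2*, the gene of its inactivator, was 0.528 by merged exons, 1.58 by transcript length and 3.99 by coding length, so which of these RNAs was the more abundant cannot be stated from these values. Its close relative *Rhebl1*, which also activates mTORC1, was lower under both lengths, with a mean of 183.9 and a level of 16.5 ppm by merged exons and 34.3 by transcript length. *Rheb* had 3.58 and 5.33 times the level of *Rhebl1* by these lengths. Under the default setting of the counter, reads that map to both genes are left out of both counts, and how many there were was not tested.

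The order of the members from highest to lowest by merged exons was *Tsc2*, *Mtor*, *Rheb*, *Rptor*, *Mlst8*, *Akt1s1*, *Rictor*, *Tsc1*, *Deptor* and *Tbc1d7*, over a range of 7.72 times. By transcript length it was *Rheb*, *Tsc2*, *Rptor*, *Mtor*, *Rictor*, *Akt1s1*, *Mlst8*, *Tsc1*, *Tbc1d7* and *Deptor*, over a range of 16.3 times. *Tsc1*, *Deptor* and *Tbc1d7* filled the lowest places in both orders, and *Tsc1* and *Akt1s1* kept their place exactly. Between neighbours in these orders no difference was tested.

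Annotated exons of the members overlap those of other genes to very different degrees. The methods of the study state the default settings of the counter, under which reads are assigned by strand and reads that overlap genes on the same strand are set aside as ambiguous. Whether the strand of the libraries matched that setting was not tested. *Rictor* and *Tsc1* shared no exon bases with another gene. Of the merged exons of *Tsc2*, 12.0% lay in exons of a gene on the other strand: 700 bases at the 3′ end in *Pkd1* and 546 bases at the 5′ end in *Nthl1*. The 700 bases are 4.02% of the merged exons of *Pkd1*. By the RefSeq starts given above, *Tsc2* and *Nthl1* begin 55 bases apart and run away from each other without overlap. The 546 shared bases therefore depend on the annotation used. *Mlst8* had the largest share, 23.7%, since the whole of the 1054 exon bases of *Bricd5* lie within its exons on the other strand. *Bricd5* itself was counted at a mean of 3.37. *Tbc1d7* shared 17.5% and *Akt1s1* 13.6% of their exon bases with genes on the other strand, mostly long noncoding RNAs, and *Rptor* shared 6.11% with a gene on its own strand. For *Mtor*, *Deptor* and *Rheb* the share on the other strand was at most 3.45%. All these overlaps are of a later annotation than the one used for counting. Of the overlapping genes, *Pkd1*, *Nthl1*, *Bricd5*, *Tbc1d17* and *Gm9920* had a value. The others, the same-strand gene of *Rptor* among them, had none to use, and whether they took part in the counting was not tested.

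**Figure D2:**
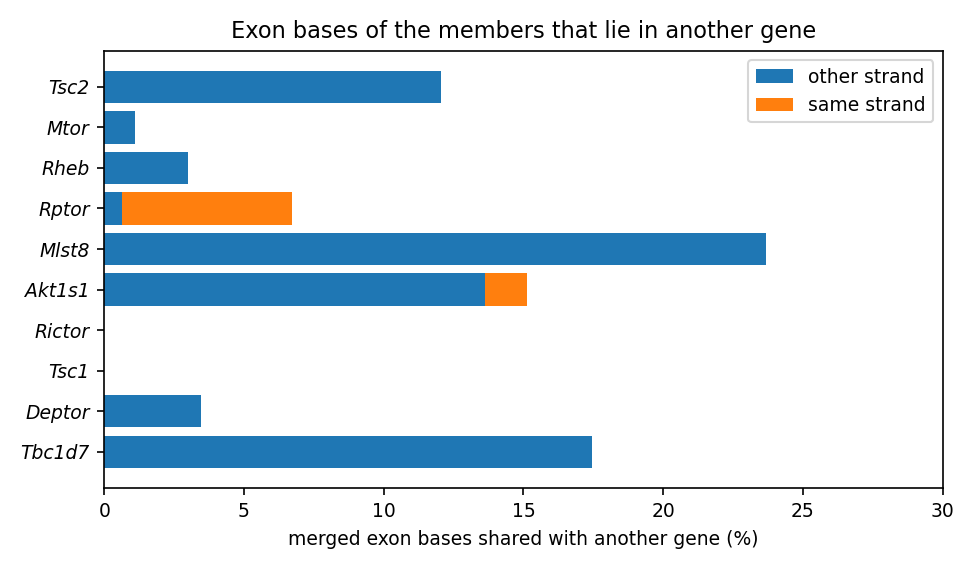
Share of each member's merged exon bases (percent) that also lie in an exon of another annotated gene, on the other strand (blue) or on the same strand (orange). *Mlst8* has the largest share, 23.7%, and *Rictor* and *Tsc1* have none.

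The neighbourhood of *Tsc2* holds another member. *Mlst8* lies 70.8 kb from *Pkd1* on the same chromosome, with 3 protein-coding genes wholly between them, so that the gene of an mTOR subunit, the gene edited in this study and the gene of the mTORC1 inhibitor tuberin follow each other along chromosome 17. *Pkd1*, which encodes polycystin-1, was counted at a mean of 3175, with a level of 63.3 ppm by merged exons and 53.8 by transcript length. *Tsc2* was 1.77 and 2.15 times as high by these lengths. *Nthl1*, whose start faces that of *Tsc2*, had a mean of 164.2. The level of *Tsc2* was 11.8 times that of *Nthl1* by merged exons and 3.34 times by transcript length. Levels along the region were uneven. *Traf7* (104.1 ppm), *Nherf2* (89.1) and *Pgp* (79.7) were the next highest by merged exons, whereas *Caskin1* (1.84), *Bricd5* (1.11) and *Rab26* (0.329) were low. By transcript length *Traf7* (134.4) stood above *Tsc2*. *Pkd2*, the partner of *Pkd1* on chromosome 5, had a mean of 4723 and a level of 97.7 ppm by merged exons and 184.4 by transcript length. As the means combine edited and wild type samples, the level of *Pkd1* is no check of the editing.

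**Figure D3:**
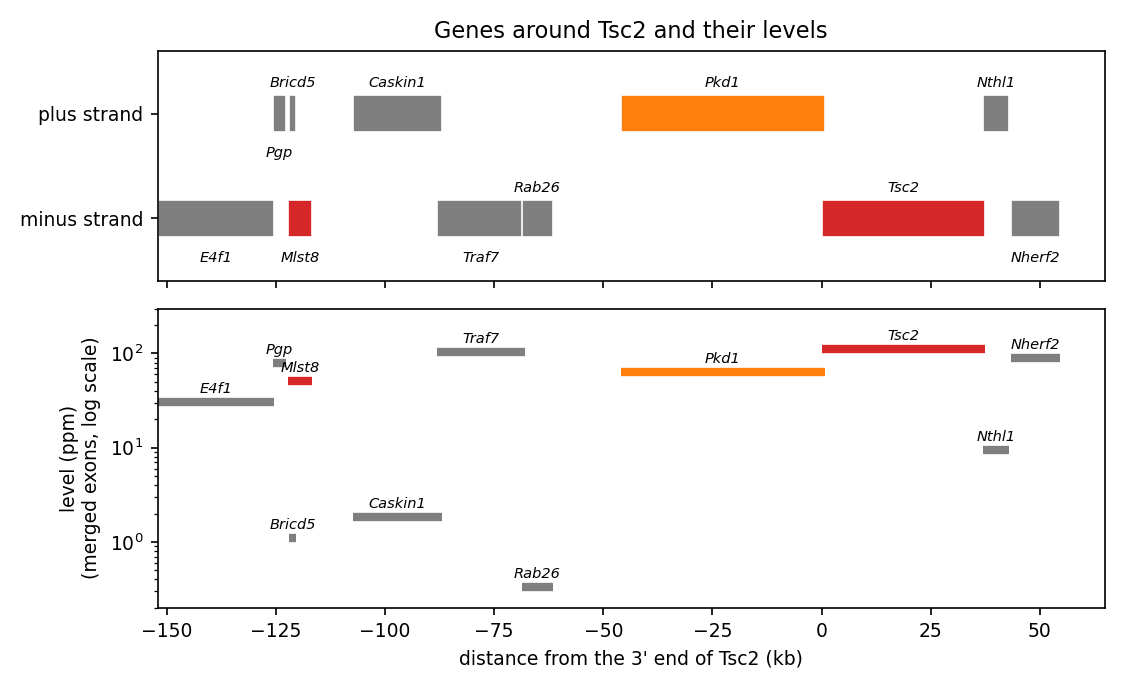
Protein-coding genes around *Tsc2* by strand (top) and their length-scaled levels ppm on a log axis (bottom), against the distance from the 3′ end of *Tsc2* in kb; members are red, *Pkd1* is orange and other genes are grey. *Tsc2* at 112.1 and *Pkd1* at 63.3 meet at 0, and *Nthl1* at 9.46 faces the start of *Tsc2*.

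The members were read against 84 other genes of the pathway with a value, in 12 lists. Of these 84 genes, 80 (95.2%) had a mean of at least 100, beside 50.3% of all genes. Their median level was 46.7 ppm. In the Rag and Ragulator list 9 of 10 genes had a value, and among the energy and stress inputs 10 of 11. Levels and places in the lists are by merged exons unless another length is named. In the 9 lists of 5 or more genes, the 2 highest genes were also the 2 highest by transcript length in 7 lists and by coding length in 2, and the 2 lowest were also the 2 lowest in 7 and 3 lists. Of the other mTORC2 subunits, *Mapkap1* had a level of 28.0 ppm by merged exons and 54.2 by transcript length, the protor gene *Prr5* 19.0 and *Prr5l* 4.53. All 3 stood under *Rictor* by both lengths, but by coding length *Mapkap1* (54.2) stood above *Rictor* (42.3). Of the chaperones that assemble mTOR, *Ruvbl1* (87.4) and *Ruvbl2* (78.5) were highest by merged exons, and *Tti2* (21.5) and *Telo2* (18.7), which form a complex with TTI1, were lowest, and all 7 had a mean over 100. By transcript length *Ruvbl2* (107.4) and *Rpap3* (80.5) were highest.

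Upstream at the lysosome, the median of the Rag and Ragulator genes stood above that of GATOR1 and KICSTOR by each length. The Rag GTPase and Ragulator genes had a median of 92.4 ppm, led by *Rraga* (254.8) and *Lamtor5* (189.2), with *Slc38a9* (5.85) and *Rragd* (3.37) lowest. By transcript length *Lamtor1* (183.8) and *Rraga* (176.3) led. The GATOR1 and KICSTOR genes, which restrain the Rag GTPases, had a median of 15.8, from *Depdc5* (37.7) and *Nprl2* (33.6) down to *Itfg2* (13.3) and *Kics2* (10.8). By transcript length *Itfg2* was 36.3, about level with *Nprl2* (36.6), and *Kptn* (16.0) and *Kics2* (12.6) were lowest. The medians of these lists were 126.1 and 34.7 by transcript length and 101.7 and 22.3 by coding length. GATOR2, which opposes GATOR1, had a median of 59.7, with *Sec13* (159.8) and *Seh1l* (93.2) highest, and *Wdr59* (30.4) and *Mios* (16.1) lowest. The median of GATOR2 was 45.8 by transcript length and 27.2 by coding length, so its distance from GATOR1 and KICSTOR was much smaller by these lengths. *Sec13* and *Seh1l* also serve the nuclear pore. Of the amino acid sensors, *Lars1*, the leucyl-tRNA synthetase gene, had a level of 196.7 ppm and *Sesn1* of 88.3, while *Samtor* (23.2) and *Castor1* (13.2) were lowest. The folliculin genes ran from *Fnip1* (47.0) and *Flcn* (43.7) to *Fnip2* (23.9).

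Upstream of TSC, the genes of PI3K, PDPK1 and AKT had a median of 96.1 ppm, and all 8 had a mean of at least 100. *Akt1* (167.9) and *Pik3r2* (125.0) were highest, and *Akt2* (29.3) and *Pik3r1* (25.4) lowest. Of the energy and stress inputs, whose signals reach TSC or raptor, *Stk11* (127.1), encoding LKB1, and the AMPK subunit gene *Prkag1* (120.1) were highest. *Prkag2* (13.6) and *Prkab2* (9.95) were lowest. Among the targets of mTORC1, *Eif4b* (667.0) and *Grb10* (393.7) exceeded all members, and *Mitf* (5.18) and *Eif4ebp3* (1.14) were lowest. Of the mTORC2 targets, *Akt1* and *Ndrg1* (123.3) were highest, and *Sgk1* (39.7), a kinase of distal tubule sodium transport, and *Akt2* lowest. By transcript length *Sgk1* (53.2) stood above *Prkca* (37.9). Of the relatives of tuberin, which form the RAL GTPase-activating complexes, *Ralgapb* had 80.7, *Ralgapa1* 41.7 and *Ralgapa2* 9.01 ppm.

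**Figure D4:**
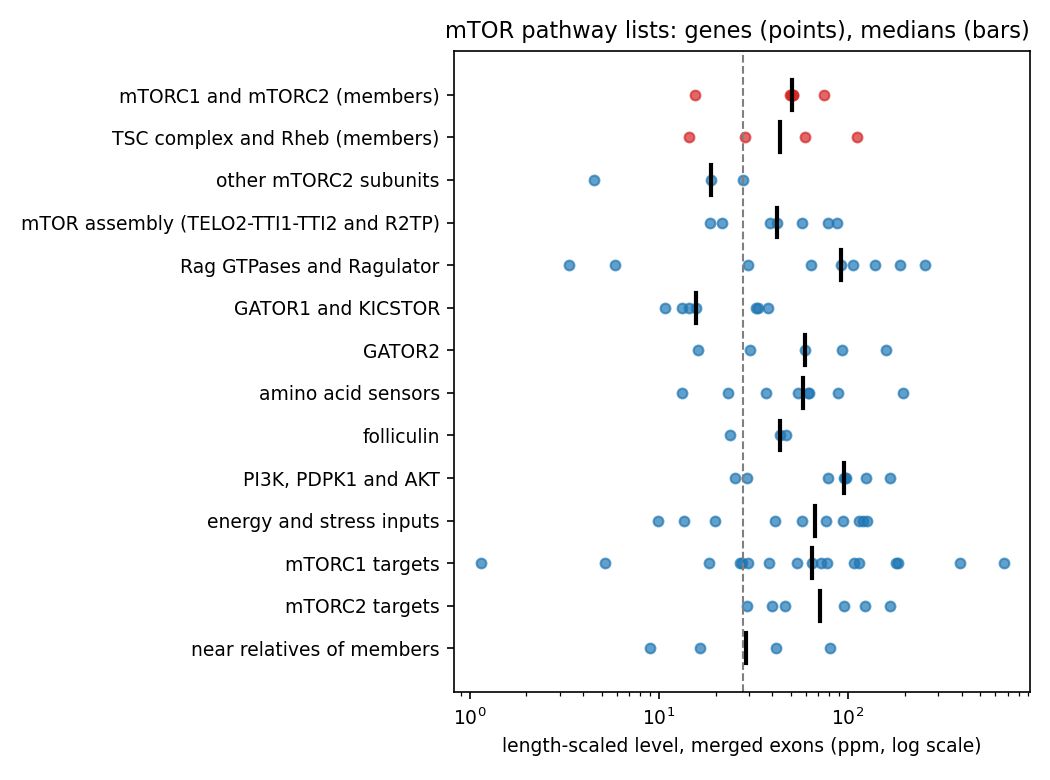
Length-scaled level ppm by merged exons (log axis) of the genes of each list, with a point for each gene, a black bar for the list's median and a dashed line at 28.1, the median of all genes with a mean of at least 10. Members are red; the medians run from 15.8 for GATOR1 and KICSTOR to 96.1 for PI3K, PDPK1 and AKT.

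The labelled cell type was checked against marker genes, but the check could not draw on the defining marker, which had no value to use. Of 13 markers of the distal convoluted tubule, 5 had a value: *Wnk1* (124.4 ppm), *Wnk4* (32.8), *Egf* (1.37), *Trpm6* (1.29) and *Klhl3* (0.268). The other 8, among them *Slc12a3*, the sodium-chloride cotransporter gene that defines this segment, and *Pvalb*, had no value to use and were not analysed here. The summed level of the 5 was 160.1 ppm, most of it from the widely expressed *Wnk1*. All 6 proximal tubule markers had a value, with a summed level of 1512, of which *Aqp1* made 1324 and *Lrp2* 183.3. *Cubn* (3.93), *Hnf4a* (0.477), *Slc5a2* (0.332) and *Slc34a1* (0.112) were low. Of 6 epithelial markers, 4 had a value, with a summed level of 641.7. *Cdh16* (390.4) and *Pax8* (235.7) were high, *Epcam* was 15.5 and *Krt8* 0.174. The summed level of the proximal tubule markers thus exceeded that of the markers of the labelled segment. Of 7 collecting duct markers, 4 had a value, with a summed level of 27.8, of which *Hsd11b2* made 22.8. All 4 fibroblast markers had a value and summed to 11.1, of which *Col1a1* made 10.6. Of 4 immune markers, 2 had a value and summed to 10.7, of which *Cd68* made 10.6. The thick ascending limb had 1 of 4 markers with a value, *Ptger3* (0.452), and intercalated cells 1 of 5, *Aqp6* (0.214). Of 4 endothelial markers, 2 had a value, with a summed level of 0.222. These sums rest on different numbers of genes and do not rank the cell types. In bulk RNA, fewer expressing cells and less RNA per cell cannot be told apart.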

How the data were processed

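Groups were read from the sample titles (3 *Pkd1*-/- and 3 wild type samples). Per the paper's methods and the labels, the authors trimmed reads (Trim Galore 0.4.5), mapped them to GRCm39 (STAR 2.7.5a), counted them per gene of the Ensembl annotation (HTSeq 0.11.0 at its default settings) and compared the genotypes (DESeq2 1.22.0). The deposited mean per gene is a signal, the count divided by the size factor of each library and averaged over all 6 samples. The authors' table holds 5 further columns with their own comparison (fold changes, errors, statistics and p-values), which were not used, so no genotype difference was tested.

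Gene models came from GENCODE M39 on GRCm39, which held 20122 (97.6%) of the identifiers; the others carried 9.12% of the summed means. It is a later annotation than the one used for counting, so exons added since then lengthen the merged exons. Means were divided by length and scaled to a sum of 1000000 over the genes that had that length. The scaling was tested on simulated data. There the counts were drawn with the same merged exon lengths by which they were then divided. The test therefore cannot say which gene length is right. Promoter windows came from RefSeq on GRCm38. Python 3.11.15, numpy 2.4.6 and pandas 2.3.3 were used.

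The members and lists were chosen with earlier results of these data known. Named genes were the members, *Pkd1*, *Pkd2*, *Rhebl1*, genes that overlap or adjoin a member, the 2 highest and 2 lowest of each list, and markers. *Pdk1*, which encodes a pyruvate dehydrogenase kinase, was dropped from the PI3K list as an error of naming, and another gene of that list is not reported here. Alternatives were other gene lengths, minimum means and sets of genes.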

Additional observations from a re-analysis of the deposited data

How the results depend on the processing

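No paired analysis was possible because the table holds a single pooled value per gene, and no sample was left out for the same reason. With no replicate spread, a value was counted as changed when it moved by more than 1.5 times. Scaling over protein-coding genes only changes all levels by the same factor, so it cannot test their order or ratios. It took the members' median level from 50.8 to 53.8. A minimum mean of 10 could move no list count by that much. With 100, 80 of the 84 other pathway genes already passed, and in the list with the lowest share 2 of 3. The members' median percentile of 77.5 among all genes could fall by that much but not rise. It was 66.7 over genes whose mean reached 10 and 68.3 over protein-coding genes. No listed symbol had several identifiers, so summing over identifiers gave the same median.

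Of the results recomputed, the coding sequence moved 11 of 34, the longest coding transcript 7 of 35 and a minimum mean of 1000 moved 11 of 15. Against the order by merged exons, 2 of the 10 members kept their place with the longest coding transcript, 1 with the coding sequence and 4 with no length scaling. With the longest coding transcript the ratio of *Tbc1d7* to *Tsc2* was 0.257 and that of *Rheb* to *Tsc2* 1.58, against 0.129 and 0.528. With the coding sequence, which leaves out untranslated bases whose reads were counted, the ratios were 2.30 for *Mlst8* to *Mtor*, 1.12 for *Deptor* to *Mtor*, 0.559 for *Tsc1* to *Tsc2*, 0.345 for *Tbc1d7* to *Tsc2* and 3.99 for *Rheb* to *Tsc2*. With a minimum mean of 1000 in place of 100, 39 of the 84 other pathway genes passed, beside 4320 of all 20624 genes. Depth per sample is unknown, so no counting interval is given.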
